A study of Homo sapiens with 2 samples.

Results

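Hashtag12 is 1 of 13 antibody hashtags in a pool of human cardiomyocyte preparations, and it is described here because a larger share of its cells expressed endoderm genes than under any other hashtag. A cell was kept with at least 500 genes, at least 1000 gene UMIs (unique molecular identifiers, the counted RNA molecules) and at most 25% of them mitochondrial. Each kept cell with 20 or more hashtag UMIs was counted under the hashtag making up 70% or more of them. Of 24038 barcodes, 21623 passed the filter and 10319 of these received a hashtag, 486 of them to Hashtag12. The other side is Hashtag3 (664 cells), Hashtag5 (1262), Hashtag6 (949), Hashtag8 (746) and Hashtag9 (452). Both sides were compared over all cells and over cardiomyocytes, which are cells with at least 20000 CPM (counts per 1000000 gene UMIs) summed over TNNT2, ACTN2, TTN, TNNC1, MYL4, MYL7 and MYBPC3. Cardiomyocytes numbered 334 in Hashtag12 and 555, 907, 796, 600 and 372 in the other 5.

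All cells came from the human embryonic stem cell line H9 with a gCaMP6f calcium reporter, were differentiated to cardiomyocytes for 15 days and were stored frozen. After thawing in RPMI-B27 with insulin, serum and the ROCK inhibitor Y-27632, samples were stained with 1 hashtag antibody each and pooled for droplet capture. The labels do not say what any hashtag stands for, so Hashtag12 is 1 unassigned sample without replicates, and what separates it from the other hashtags is not known. It was picked out by its endoderm share and by gene levels in these same cells, so all values below are descriptions and carry no test. The intervals (exact, 95%) reflect counting error and nothing else.

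Definitive endoderm gives rise to liver, gut and lung, and it forms beside cardiac mesoderm under related signals, so it can appear in cardiac differentiations. Hepatic and yolk sac endoderm share a secretory programme of fetal serum proteins, apolipoproteins and clotting factors, driven by HNF4A, FOXA and ONECUT transcription factors. In early cardiomyocytes the natriuretic peptide genes NPPA and NPPB and the adult troponin gene TNNI3 are widely used signs of cardiac stress, chamber identity and maturation.

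Hashtag12 held more endoderm-class cells than any other hashtag. A cell outside the cardiomyocytes was placed in the endoderm class with at least 5000 CPM summed over AFP, APOA1, APOA2, APOB, TTR, FGB, SERPINA1, RBP4 and VTN, and at least 3 of these 9 genes detected. Of the 486 cells, 29 were in the class (5.97%, interval 4.03 to 8.46). The share was 0.452% in Hashtag3, 1.66% in Hashtag5, 0.211% in Hashtag6 and 0.402% in Hashtag8, and no cell of Hashtag9 was in it, which allows a share of up to 0.813%. Over the 12 other hashtags the highest share was 2.48%, in Hashtag10. Hashtag12 thus gave 29.9% of the 97 tagged endoderm-class cells and 4.71% of all tagged cells. Among cells that were not cardiomyocytes, 19.1% of those in Hashtag12 were in the class, against 0% to 5.92% in the other 5. In Hashtag10 this share was 15.9% (8.72 to 25.6), an interval that holds the value of Hashtag12, and in Hashtag7 it was 7.27%.

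Stromal-class cells, defined by at least 1000 CPM of collagen and matrix genes such as COL3A1 and LUM, made up 9.67% of Hashtag12 (47 cells, interval 7.19 to 12.7). Their share ran from 0.948% to 7.53% in the other 5, and 1 of the 12 other hashtags was higher. Cardiomyocytes made up 68.7% of Hashtag12 (64.4 to 72.8), against 71.9% to 83.9% in the other 5.

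**Figure D1:**
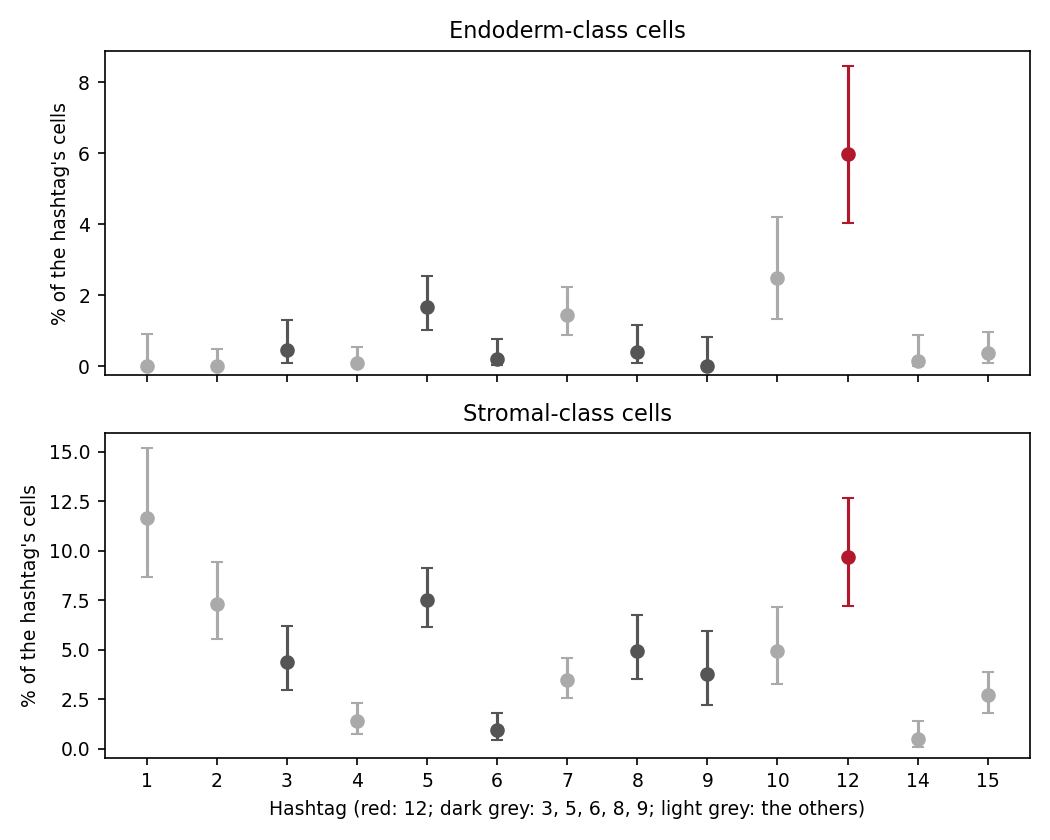
Share of each hashtag's cells in the endoderm class (top) and the stromal class (bottom), in percent, with exact 95% intervals, for 13 hashtags. Hashtag12, in red, has 5.97% endoderm-class cells, above every other hashtag, and 9.67% stromal-class cells, within the range of all 13.

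The hashtag assignment was less clear-cut for Hashtag12 than for the others. It was the leading hashtag in 1631 cells, of which 29.8% reached 70%, the lowest share of the 13 (the others 34.5% to 67.9%), and its cells had a median of 175 UMIs of their own hashtag, against 191 to 428. Just inside the purity limit a cell had 70.1% of its hashtag UMIs from Hashtag12, and just outside 69.9%. Gene depth was slightly higher than in the other 5, with a median of 13395 gene UMIs per cell against 11677 to 13046, and 2.90% mitochondrial UMIs against 1.78% to 2.93%. In cardiomyocytes both were above all 5, with a median of 14363 UMIs against 11342 to 13189, and 3.18% mitochondrial UMIs against 1.80% to 2.99%. The part of these differences in the results was not tested. The endoderm class is a range of a score and not a cell type by itself: 3 cells of Hashtag12 lay at 2500 to 5000 CPM, 3 at 5000 to 10000 CPM and 26 above, and the values nearest to the limit were 7166 CPM inside and 3548 CPM outside. At the cardiomyocyte limit the nearest values were 20333 and 19978 CPM.

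Over all cells, Hashtag12 had higher levels of many hepatic endoderm genes. A gene was called higher when its CPM was at least 1.5 times the median of the 5 other hashtags and above all 5, and lower when the median was at least 1.5 times its CPM and it was under all 5. Of 8724 genes measured at 10 CPM or more, 328 (3.76%) were higher and 219 (2.51%) lower, and the median ratio to the other 5 was 1.03. TMM scaling moved the median gene from 0.04 to -0.04 (log2 ratio) and gave 240 higher and 310 lower, so that higher genes made up 43.6% of the calls in place of 59.96%.

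AFP, the fetal albumin-like carrier protein of liver and yolk sac, stood at 929 CPM in Hashtag12 (907 to 952) and at 71.3, 222, 103, 68.8 and 8.01 CPM in Hashtags 3, 5, 6, 8 and 9, the order used from here on. The gene lies at chr4:73431138-73456174 on the plus strand (GENCODE 29). APOA1, the main protein of high-density lipoprotein, stood at 799 CPM against 93.6, 337, 120.1, 85.3 and 40.9 CPM. Both genes lay above all 5 hashtags, 4.18-fold (4.02 to 4.35) and 2.37-fold (2.29 to 2.46) above the nearest, Hashtag5. GJA1, the gap junction protein connexin 43, was given as a marker beside them but did not follow them: 39.6 CPM in Hashtag12 lay between 29.5 CPM in Hashtag8 and 59.2 CPM in Hashtag9.

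The serum protein list was higher throughout: 9 of 9 measured genes were higher, with a median ratio of 15.9, beside 1.03 for all genes. The filter limits this count, as a gene at 10 CPM in Hashtag12 alone was measured. ALB, RBP4 and AMBP were measured only in this way, with medians of 0.399, 2.01 and 7.58 CPM in the compared hashtags. AFP and SERPINA1 passed the filter by their medians as well (71.3 and 77.5 CPM). SERPINA1, which encodes the protease inhibitor alpha-1 antitrypsin, was the most abundant, at 1307 CPM against 77.5, 287, 84.4, 69.0 and 9.32 CPM. AMBP, the precursor of alpha-1-microglobulin, stood at 132 CPM and RBP4, the retinol carrier, at 42.6 CPM, 2.85-fold and 3.50-fold above Hashtag5. ALB, serum albumin, stood only slightly above Hashtag5, at 39.9 CPM against 33.0 CPM, with 44.6% of its 278 counts from 1 cell, and was not called without that cell.

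Apolipoprotein and lipid transport genes were higher in 7 of 9 measured cases (median ratio 5.94). They included APOB, the structural protein of low-density lipoprotein, at 47.9 CPM against 4.66, 10.2, 7.72, 5.59 and 0.327 CPM, and MTTP, which loads lipid onto it, at 14.9 CPM against 0.491 to 4.86 CPM. Both were under 10 CPM in the median of the other 5 and were thus measured only through Hashtag12. All 5 measured coagulation genes were higher (median ratio 12.1). The limit of the filter holds for them too, as the whole list summed to a median of 22.0 CPM in the other 5. The fibrinogen chain gene FGB reached 122 CPM against 14.5, 16.8, 7.72, 4.59 and 0 CPM, 7.28-fold (6.36 to 8.34) above Hashtag5.

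Of the endoderm transcription factors, 4 of 6 measured were higher and 1 lower. HHEX, FOXA2 and ONECUT2 were under 10 CPM in all of the other 5, and ONECUT1 was so in their median. All 4 were thus measured only through Hashtag12. ONECUT1 stood at 22.8 CPM (0.164 to 10.4 in the other 5), HHEX at 17.8 CPM (0.998 to 7.12), FOXA2 at 10.3 CPM (0.164 to 4.34, a call that TMM scaling ended) and ONECUT2 at 11.9 CPM (0.818 to 7.41). GATA6, which endoderm and heart share, was lower at 89.4 CPM against 130.5 to 161 CPM. Genes of yolk sac and early endoderm were higher in 5 of 5 measured cases (median ratio 7.99). Of these, SPINK1 and IGF2 were under 10 CPM in the median of the other 5 and were likewise measured only through Hashtag12. GPC3, a surface proteoglycan of fetal liver, stood at 482 CPM against 46.8 to 200.5 CPM, and the imprinted growth factor IGF2 at 51.2 CPM against 4.43 to 25.5 CPM. Of all 12 other hashtags, 2 lay above Hashtag12 for GPC3 (up to 684 CPM). For FOXA2 1 did (11.3 CPM), as did 1 for DLK1 (183 CPM against 174 CPM in Hashtag12). None did for AFP, APOA1, SERPINA1, FGB, ONECUT1, HHEX, ONECUT2 or IGF2.

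**Figure D2:**
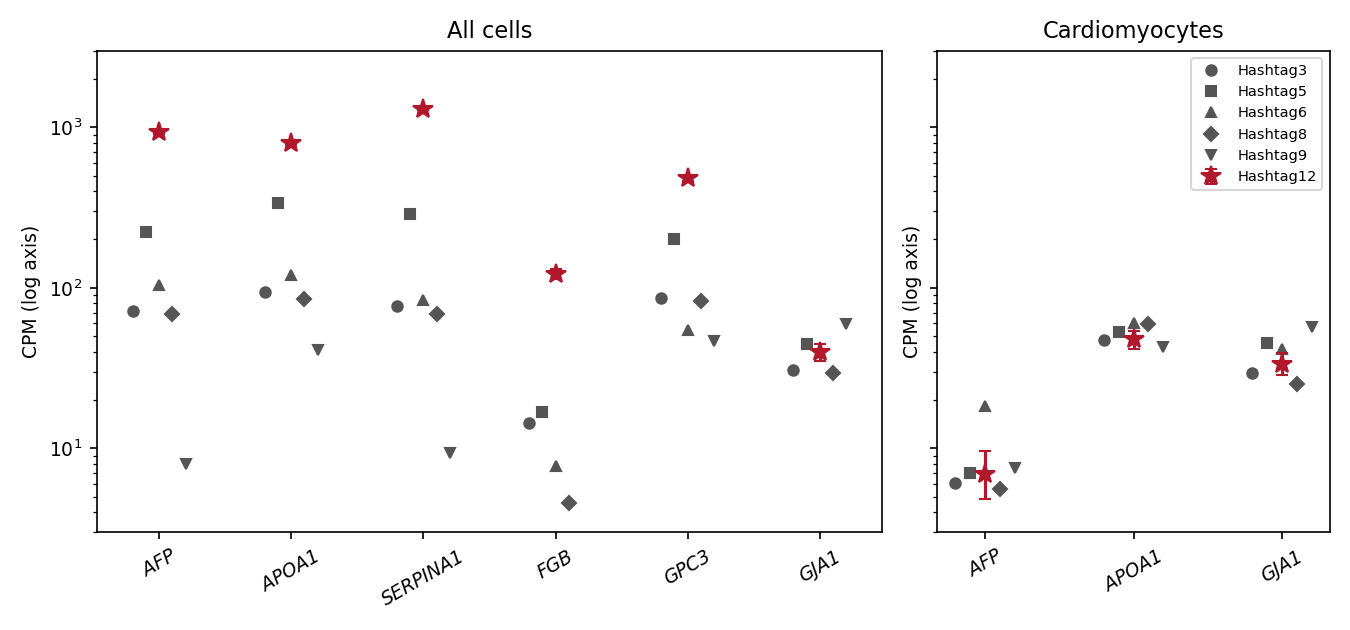
CPM on a log axis of 6 genes over all cells (left) and 3 of them in cardiomyocytes (right), with Hashtag12 as a red star with its 95% interval and the other 5 hashtags in grey. FGB had 0 counts in Hashtag9 and is not drawn there. AFP, at 929 CPM over all cells, is at 6.89 CPM in cardiomyocytes, within the other hashtags.

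Serum protein and clotting genes were high in the endoderm-class cells, while regulators were also counted outside them. The class was chosen on 9 of these genes, so a lower sum of the 9 without it is largely fixed by that choice. Without endoderm-class cells in every hashtag, the 9 endoderm markers of Hashtag12 summed to 96.4 CPM against 62.8 to 129 CPM, where the sum over all cells had been 3532 CPM against 62.8 to 1019 CPM. AFP and APOA1 were then at ratios of 0.786 and 0.953 to the median of the 5. Of the serum proteins 2 remained measured and SERPINA1 alone was higher, and no coagulation gene was measured. Of the regulators, 60 of 159 ONECUT1 counts, 40 of 124 HHEX counts, 31 of 72 FOXA2 counts and 49 of 83 ONECUT2 counts came from the other cells of Hashtag12. Without the class ONECUT1, HHEX, FOXA2 and ONECUT2 were under 10 CPM and no longer called, but at ratios of 28.9, 5.45, 6.85 and 5.56. MTTP, likewise not called, was at a ratio of 6.72. Counts over all genes were 252 higher (2.92%) and 203 lower (2.35%) of 8635. In the yolk sac list, 4 of 5 genes (SPINK1, GPC3, DLK1 and IGF2) were still higher, with a median ratio of 2.98. Part of this lay in other classes: 444 of 1109 DLK1 counts outside the endoderm class came from stromal-class cells. IGF2 was no longer called when stromal-class cells were left out too. In cardiomyocytes, SPINK1 and DLK1 were not called without the cell holding most of their UMIs. In the 334 cardiomyocytes AFP stood at 6.89 CPM against 6.05, 7.003, 18.3, 5.54 and 7.58 CPM, and APOA1 at 47.6 CPM against 42.7 to 60.6 CPM, both inside the range. After each cell was thinned to 3000 UMIs, 4.05% of these cardiomyocytes had an AFP UMI (8.98% before thinning), against 1.43% to 2.87% in the other 5. In stromal-class cells of Hashtag12, which should lack the gene, the share was 6.82% (1.43 to 18.7), an interval that holds the cardiomyocyte share.

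Within the endoderm class, cells of Hashtag12 were set beside those of the 3 other hashtags with at least 10 such cells: Hashtag5 (21 cells), Hashtag7 (20) and Hashtag10 (13). SERPINA1, AFP and APOA1 are among the genes that define the class, so their high levels are in part fixed by it. The 29 cells had a median of 17077 UMIs, against 14333, 20115 and 22930. SERPINA1 was at 15968 CPM, against 12677, 13157 and 13750 CPM, and AFP at 11498 CPM, against 10033, 6712 and 9934 CPM. APOA1 differed more, at 9387 CPM against 13328, 3346 and 4184 CPM, and was the highest of the 3 genes in Hashtag5. FGB, at 1512 CPM against 698, 679 and 637 CPM, lay above the other 3. ALB, at 497 CPM, lay below 1555 CPM in Hashtag5 and above 41.3 and 75.8 CPM in the other 2. Per cell, all 29 had a UMI of AFP, APOA1, SERPINA1 and GPC3, while 8 had a UMI of ALB. Of SERPINA1, AFP, FGB and ALB, the level of ALB thus varied most over the 4 hashtags and that of SERPINA1 least.

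Hepatic regulators were present in the class at low levels: ONECUT1 at 177 CPM, HHEX at 150 CPM, PROX1 at 127 CPM, CEBPA at 96.6 CPM, FOXA2 at 73.3 CPM and HNF4A at 46.5 CPM. In the other cells of Hashtag12, PROX1 was nearly as high, at 97.6 CPM. The remaining 5 were there at 9.36, 6.24, 0.936, 4.83 and 0.624 CPM, in the same order. GATA6, of the same list, was lower in the class than in the other cells (62.6 against 91.7 CPM). SOX17 and CER1, genes of early definitive endoderm, CDX2, of the hindgut, and NKX2-1, of lung and thyroid, had 0 counts in 558986 UMIs, which allows up to 6.60 CPM. Of the 9 gut and foregut genes listed, 4 were at 0 and 2 reached 10 CPM. TFF3, a mucosal trefoil peptide, was at 68.0 CPM in 18 of the 29 cells, and VIL1, the brush border protein villin, at 19.7 CPM in 10 of them. PDX1, SOX2 and KLF5 had 3 to 5 counts each. The median cell of the class had 1122 CPM of the 7 cardiomyocyte genes, 721 CPM of the epithelial markers and 0 CPM of the stromal ones. GJA1 had 2 counts in the class (3.58 CPM), against 42.7 CPM in the other cells of Hashtag12, while the liver connexin gene GJB1 was at 34.0 CPM against 0.312 CPM. Genes of the G2 and M phases summed to 1338 CPM, between 608 CPM in Hashtag5 and 3104 CPM in Hashtag10.

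**Figure D3:**
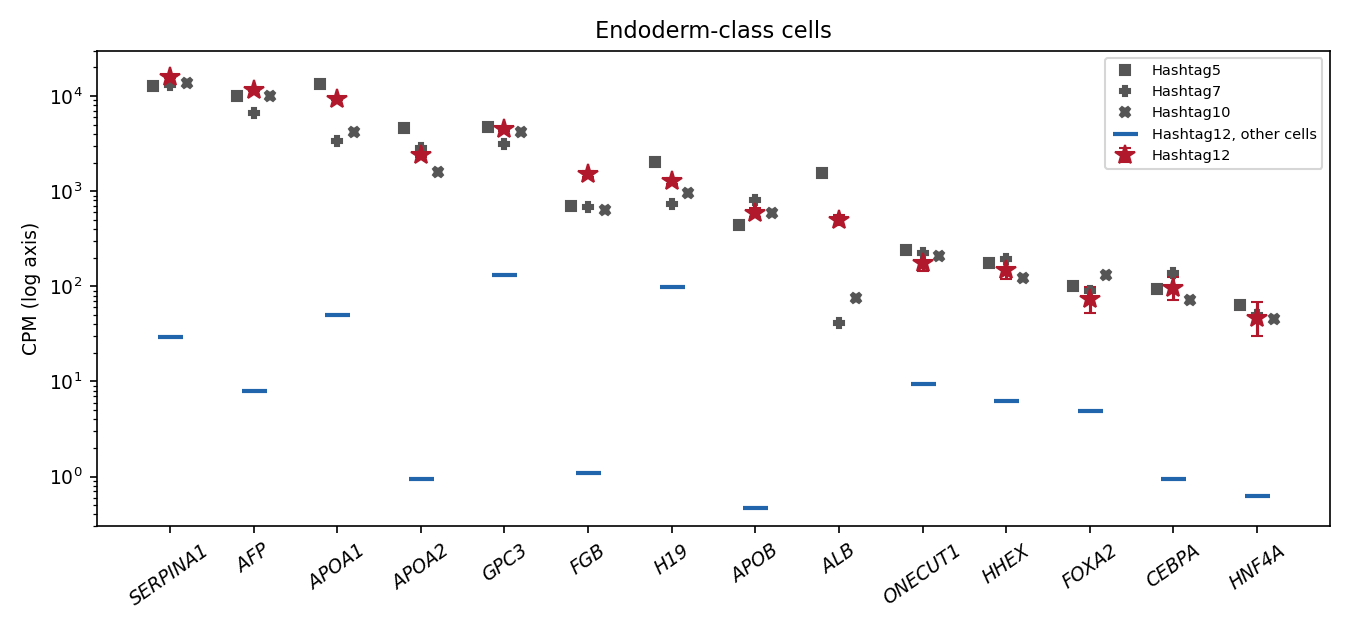
CPM on a log axis of 14 endoderm genes in endoderm-class cells of Hashtag12 (red stars, with 95% intervals), Hashtag5, Hashtag7 and Hashtag10 (grey), and in all other cells of Hashtag12 (blue bars). SERPINA1 and AFP are the highest in Hashtag12, and FGB is above the other 3 hashtags at 1512 CPM. ALB has 0 counts in the other cells of Hashtag12 and no bar.

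The stromal class of Hashtag12 had more of some matrix genes and less of others. LUM, a collagen-binding proteoglycan, was at 417 CPM in its 47 cells, against 57.5, 146, 89.7, 43.3 and 141 CPM. HAPLN1, which links hyaluronan to proteoglycans, was at 307 CPM against 26.0 to 123 CPM, and DLK1, an imprinted Notch ligand of fetal mesenchyme, at 981 CPM against 171 to 487 CPM. Each of the 3 lay above all 5 hashtags, whose stromal classes held 9 to 95 cells. The fibrillar collagen COL3A1 differed less, at 2049 CPM against 1368 to 1730 CPM. FN1, fibronectin, lay below all 5, at 528 CPM against 699 to 1178 CPM. The collagen COL1A1, at 824 CPM, POSTN, a matrix protein of fibroblasts, at 81.7 CPM, and THY1, a fibroblast surface protein, at 267 CPM lay inside the range of the others. Over all cells, 5 of 6 measured stromal markers were higher (median ratio 2.35), and the 8 markers summed to 464 CPM against 88.2 to 384 CPM. In cardiomyocytes they summed to 67.9 CPM, inside the 48.8 to 84.6 CPM of the others.

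Cardiomyocytes of Hashtag12 had less of natriuretic peptide and sarcomere isoform genes and more of some secreted and surface proteins. Of 8489 measured genes, 267 (3.15%) were lower and 209 (2.46%) higher, with a median ratio of 1.02 and 55.6% of ratios above 1. The excess of lower calls turned round with no minimum level (1317 higher and 1086 lower) and at 90% hashtag purity (1129 and 946). Higher genes made up 43.9% of the calls, and 32.7% after TMM scaling, which gave 154 higher and 317 lower. The 7 genes used to choose cardiomyocytes summed to 36019 CPM, inside the 32595 to 40692 CPM of the others. As in all the summed counts, fewer cells with a transcript and less of it per cell cannot be told apart from these levels alone.

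Of the 3 measured natriuretic peptide genes, 2 were lower, with a median ratio of 0.24 for the list. NPPB, which encodes B-type natriuretic peptide, stood at 98.2 CPM in Hashtag12 (89.8 to 107) and at 1814, 725, 513, 1394 and 1916 CPM in the other 5. That is 14.2-fold below their median and 5.22-fold (4.76 to 5.73) below the nearest, Hashtag6. NPPA, which encodes the atrial peptide, stood at 124 CPM against 788, 498, 428, 512 and 701 CPM, 3.44-fold (3.16 to 3.74) below Hashtag6. Both genes lay below all 5 hashtags, as did 1563 of the 8489 genes measured in cardiomyocytes. CORIN, the protease that activates the atrial peptide, was at 108 CPM against 79.5 to 94.6 CPM and was not called. Across the 12 other hashtags, 11 were above Hashtag12 for each peptide, and the remaining 1 was below it.

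Sarcomere isoform genes were lower in 8 of 16 measured cases and higher in none (median ratio 0.75). TNNI3, the troponin I of the mature heart, stood at 32.1 CPM (27.3 to 37.4) against 147, 118, 137, 104 and 141 CPM, 3.25-fold (2.75 to 3.87) below the nearest. TNNI1, its fetal counterpart, was at 6365 CPM against 5328 to 6149 CPM and was not called. CSRP3, a Z-disc sensor of stretch, stood at 204 CPM against 576, 469, 462, 741 and 670 CPM. MYH7, the slow myosin heavy chain, was at 310.0 CPM (295 to 326) against 484, 502, 434, 607 and 1022 CPM, while MYH6, its atrial and fetal partner, was at 3488 CPM inside 3070 to 3834 CPM. ACTA1, skeletal actin, stood at 44.9 CPM, close to 57.5 CPM in Hashtag6 and below 116 to 352 CPM in the other 4. MYL2, the ventricular light chain, was low everywhere, at 12.6 CPM against 14.4 to 50.5 CPM, and its gap to Hashtag6 lay within counting error (1.14-fold, 0.849 to 1.56).

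The small heat shock protein gene CRYAB, a chaperone of the sarcomere, stood at 99.4 CPM against 331, 405, 325, 406 and 497 CPM, 3.27-fold (2.98 to 3.60) below the nearest. PLN, the brake on the calcium pump, was at 751 CPM against 889 to 1405 CPM. FABP3, which carries fatty acids, was at 189 CPM against 260.1 to 367 CPM, and the T-type calcium channel gene CACNA1G at 11.0 CPM against 18.2 to 22.1 CPM. All 4 were lower. RYR2, the calcium release channel, was at 231 CPM and within 213 to 238 CPM. The pacemaker channel gene HCN4 was at 44.5 CPM against 55.8 to 93.9 CPM, below all 5 but just short of the 1.5-fold limit. Among all 12 other hashtags, none lay below Hashtag12 for ACTA1, PLN or FABP3, 1 did for TNNI3, CSRP3 and CACNA1G, 2 did for CRYAB, and 4 did for MYH7 and MYL2. The median of MYH7 over the 7 hashtags not compared above was 269 CPM.

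**Figure D4:**
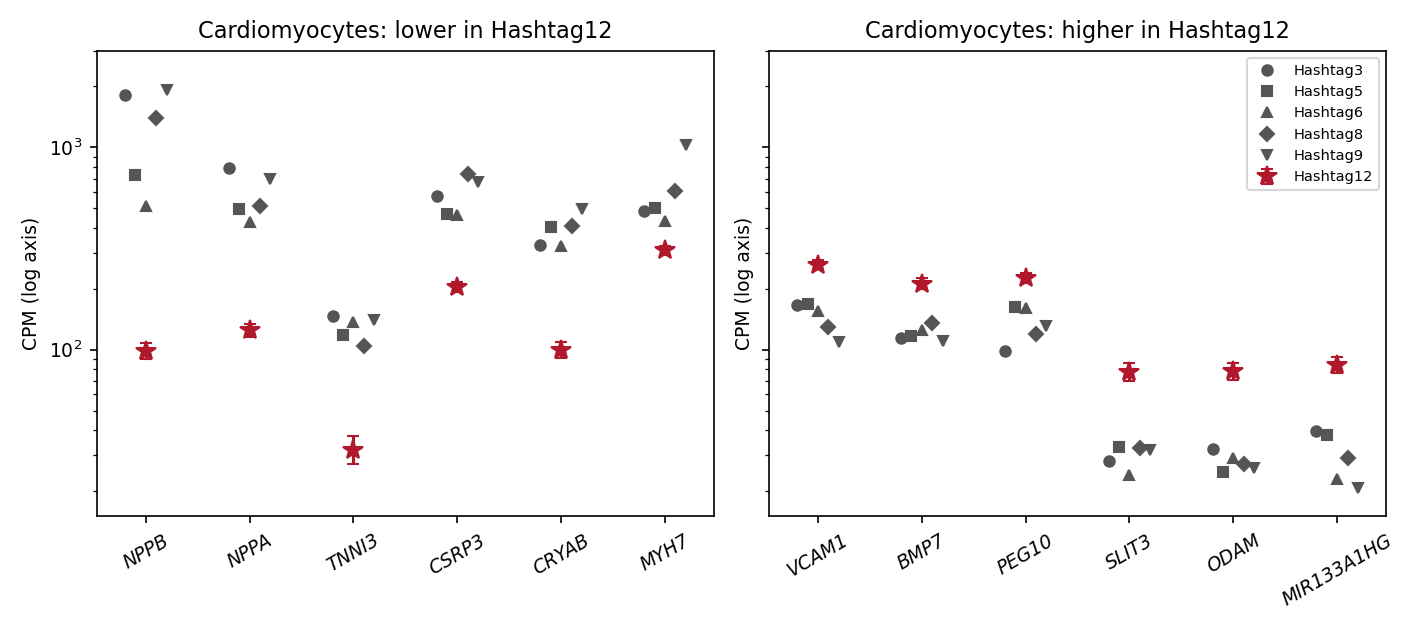
CPM on a log axis of 6 genes that were lower (left) and 6 that were higher (right) in cardiomyocytes of Hashtag12, shown as red stars with 95% intervals, beside the other 5 hashtags in grey. For every gene drawn, Hashtag12 lies outside the other 5, as a call requires, and furthest for NPPB at 98.2 CPM.

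For TNNI3, NPPA, NPPB, CSRP3 and CRYAB the gaps were also present as shares of cells at equal depth. After thinning, TNNI3 had a UMI in 7.17% of 321 cardiomyocytes (interval 4.60 to 10.6), against 26.6%, 22.9%, 22.6%, 19.1% and 23.9%. NPPA had one in 16.2% (12.3 to 20.7) against 26.9% to 45.3%, and NPPB in 13.1% (9.60 to 17.3) against 20.0% to 43.0%. CSRP3 had one in 36.1% against 57.7% to 65.8%, and CRYAB in 21.5% against 42.1% to 54.7%. Other lower genes did not stand apart in this way. ACTA1, at 7.79%, lay inside 7.25% to 18.1%. MYL2 was at 2.80% (1.29 to 5.26) against 4.10% to 10.5%, and MYH7 at 36.4% (31.2 to 42.0) against 40.2% to 53.8%. Both intervals held the value of Hashtag6. Before thinning the shares in Hashtag12 were 24.6% for TNNI3, 37.7% for NPPA, 30.5% for NPPB, 75.1% for CSRP3 and 44.6% for CRYAB. In the 44 stromal-class cells of Hashtag12 that could be thinned, which should lack these transcripts, 6.82% had a UMI of TNNI3, 4.55% of NPPA, 11.4% of NPPB, 6.82% of CSRP3 and 0% of CRYAB (a count of 0 allows up to 8.04%). TNNI3 also had a UMI in 18.5% of the 27 thinned endoderm-class cells. The thinned shares of CSRP3 and CRYAB in cardiomyocytes of Hashtag12 lay clear of the stromal interval, that of NPPA overlapped it (0.555 to 15.5), and those of TNNI3 and NPPB were close to the background. The part of free RNA in these shares was not tested.

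Promoters of NPPA and TNNI3 (the 250 bases before the RefSeq start, GRCh38.p14, along the strand of the gene) are shown as those of low cardiac genes, with the letters that GATA factors are known to bind. Of the GATA factors on the cardiac list, GATA6 was lower, at 89.3 CPM in cardiomyocytes of Hashtag12 against 131 to 162 CPM, and GATA4 was not called. The GATA6 call was lost at 1.5 times the nearest hashtag. A link between either factor and the levels of NPPA and TNNI3 was not tested. Capitals mark AGATAA or TGATAA on either strand (TTATCT and TTATCA on the other strand). In GENCODE 29, NPPA lies at chr1:11845709-11848345 and TNNI3 at chr19:55151767-55157773, both on the minus strand.
NPPA, chr1:11847784-11848033, minus strand: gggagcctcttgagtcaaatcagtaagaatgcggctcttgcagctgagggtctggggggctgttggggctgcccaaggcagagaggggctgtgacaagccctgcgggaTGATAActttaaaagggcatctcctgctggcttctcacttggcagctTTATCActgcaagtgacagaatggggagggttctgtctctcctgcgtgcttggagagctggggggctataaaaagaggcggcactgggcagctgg
TNNI3, chr19:55157733-55157982, minus strand: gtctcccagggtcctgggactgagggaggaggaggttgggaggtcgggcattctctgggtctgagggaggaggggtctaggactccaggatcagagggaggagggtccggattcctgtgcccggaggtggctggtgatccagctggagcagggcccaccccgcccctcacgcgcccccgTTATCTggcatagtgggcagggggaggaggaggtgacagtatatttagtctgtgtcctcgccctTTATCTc
Counted from the start, matches began at -142 and -95 in NPPA and at -71 and -7 in TNNI3. AGATAA or TGATAA was present on either strand in 14.6% of 35116 promoter windows of this length, and the match is a description only.

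Glycolysis and hypoxia genes were lower in part, and stress genes went both ways. Of 24 measured glycolysis and hypoxia genes 5 were lower (HK2, ENO2, ADM, EGLN3 and P4HA1), none was higher, and 1 had a ratio above 1 (median ratio 0.79). ADM, which encodes the vasodilator adrenomedullin, stood at 13.8 CPM against 36.4, 38.2, 63.0, 52.5 and 34.97 CPM. VEGFA, the vascular growth factor, was at 82.1 CPM against 108 to 206 CPM. HK2, the first enzyme of glycolysis, was at 26.6 CPM against 29.1 CPM in Hashtag3, a gap within counting error (1.10-fold, 0.878 to 1.37). DDIT3, a factor of the unfolded protein response, stood at 14.4 CPM against 23.5 to 65.9 CPM, and the p53 targets SESN1 and PHLDA3 at 12.6 and 35.03 CPM against 20.9 to 27.8 and 48.2 to 72.1 CPM. Of 16 measured stress and immediate early genes, 4 were higher (FOS, FOSB, EGR1 and IER2) and 2 lower (ATF3 and DDIT3), with a median ratio of 1.15. EGR1 was at 38.6 CPM against 15.2 to 29.1 CPM, and IER2 at 113 CPM against 59.9 to 91.7 CPM. As shares of thinned cardiomyocytes, EGR1 was at 7.79% (5.10 to 11.3) and FOS at 31.2% (26.1 to 36.5). Both intervals held the value of Hashtag6 (7.39% and 29.5%). Before thinning FOS was at 56.3%, below 60.7% in Hashtag6. IER2 was not called without Hashtag8 or without Hashtag9 (ratio 1.46 in both cases), and neither was ATF3 (0.677).

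Outside the lists, genes with the widest gaps on the lower side were led by MT1G, NMB, RASD1 and HAMP. MT1G, a metal-binding metallothionein, had 16 counts, 3.15 CPM, against 40.9, 12.8, 51.2, 52.4 and 67.8 CPM, and 50.0% of those counts came from 1 cell. The neuropeptide gene NMB was at 12.8 CPM against 50.3 to 129 CPM. HAMP, the iron regulator hepcidin, was at 11.4 CPM against 40.1 to 62.2 CPM. The cell cycle regulator CCND1 was at 16.9 CPM against 37.7 to 52.3 CPM, and the nuclear RNA NEAT1 at 115 CPM against 193 to 219 CPM. Of the 12 other hashtags, 3 lay below Hashtag12 for HAMP, 2 for MT1G and NMB, 1 for CCND1 and none for RASD1 and NEAT1.

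On the higher side, SLIT3, a secreted guidance ligand, stood at 77.7 CPM (70.3 to 85.8) against 28.3, 32.8, 23.9, 32.5 and 31.9 CPM, 2.37-fold (2.06 to 2.72) above the nearest. ODAM, a secreted protein known from enamel, stood at 78.1 CPM against 32.2, 24.7, 28.99, 27.1 and 26.0 CPM. MIR133A1HG, the host transcript of the muscle microRNA miR-133a, was at 84.0 CPM against 20.8 to 39.8 CPM. All 3 were above the 12 other hashtags as well, but by less. The highest of the 7 hashtags not compared was at 68.9 CPM for SLIT3, 50.2 CPM for ODAM and 74.6 CPM for MIR133A1HG. FGF18, a growth factor, was at 66.1 CPM against 22.8 to 36.6 CPM, and 1 of the 12 other hashtags was above it (79.2 CPM). BMP7, a growth factor of the BMP family, was at 212 CPM against 111 to 135 CPM and PEG10, an imprinted gene, at 226 CPM against 99.0 to 162 CPM. Both again exceeded the 12 others, of which the highest was at 199 CPM for BMP7 and 191 CPM for PEG10.

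VCAM1, a surface protein used to sort cardiomyocytes, stood at 263 CPM (249 to 278) against 167, 168, 156, 129 and 109 CPM, and was found in 47.4% of thinned cardiomyocytes against 25.4% to 38.2% (6.82% in stromal-class cells of Hashtag12). SIRPA, the other surface marker used for this, was at 38.8 CPM against 24.1 to 31.4 CPM, at a ratio of 1.51 that barely met the limit and was kept in 6 of 20 alternative settings. It was lost without Hashtag5, 6 or 9 (ratios 1.41). SLIT3 had a UMI in 16.8% of thinned cardiomyocytes against 5.93% to 8.55%, and in 18.2% of stromal-class but 0 of 27 endoderm-class cells of Hashtag12 (up to 12.8%). Before thinning the shares were 83.8% for VCAM1 and 50.0% for SLIT3. ANGPT1, a vessel-stabilising ligand picked out after its values were seen, was at 155 CPM against 36.1, 75.2, 103, 40.9 and 39.4 CPM.

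G2 and M phase genes had ratios above 1 in all 25 measured cases (median ratio 1.25), beside 55.6% of all measured genes, but 3 were called, CCNB1, NUF2 and NDC80. The list summed to 857 CPM against 540 to 848 CPM, close to 848 CPM in Hashtag3 and 819 CPM in Hashtag8. As the genes were counted in the same cells, the 25 ratios are not separate results. CCNB1, cyclin B1, was at 62.0 CPM against 32.6 to 46.8 CPM, and NDC80, of the kinetochore, at 17.1 CPM against 16.7 CPM in Hashtag3, within counting error. None of the 3 was called without the cell holding most of its UMIs (ratios 1.34 for CCNB1, 1.33 for NUF2 and 1.44 for NDC80). CCNB1 and NDC80 were also not called without Hashtag6 or Hashtag9 (1.48 and 1.32), and NDC80 without Hashtag5 (1.40). Of 17 S phase genes 2 were lower, MCM6 and CDT1, and MCM6 was not called without Hashtag3, 8 or 9 (0.671 to 0.679). SPINK1 and DLK1 were called higher in cardiomyocytes, but 95.4% and 76.8% of their counts came from 1 cell each. Without that cell DLK1 was at a ratio of 1.02 and neither gene was called.

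Few chamber genes were called, and the ventricular and atrial lists differed in their median ratios (1.10 and 0.68). Ratios were above 1 for 7 of 10 ventricular and 1 of 9 atrial and pacemaker genes, beside 55.6% of all measured genes. The ventricular list summed to 4673 CPM, above 3540 to 4493 CPM, and the atrial list to 8059 CPM, inside 6515 to 8097 CPM. Of 10 measured ventricular genes, MYL2 and HOPX were lower and IRX3 higher, while HEY2, a ventricular repressor, was at 147 CPM inside 135 to 203 CPM. Of 9 atrial and pacemaker genes, NPPA and TBX3 were lower. NR2F2, the atrial regulator, was at 23.6 CPM, inside 16.3 to 54.3 CPM, and NKX2-5, the core cardiac factor, was at 441 CPM, below 462 to 767 CPM but not called. The atrial connexin gene GJA5, at 3.35 CPM against 4.18 to 9.18 CPM, and the progenitor factor gene ISL1, at 8.46 CPM against 4.14 to 7.19 CPM, were under the 10 CPM minimum and were not called.

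**Figure D5:**
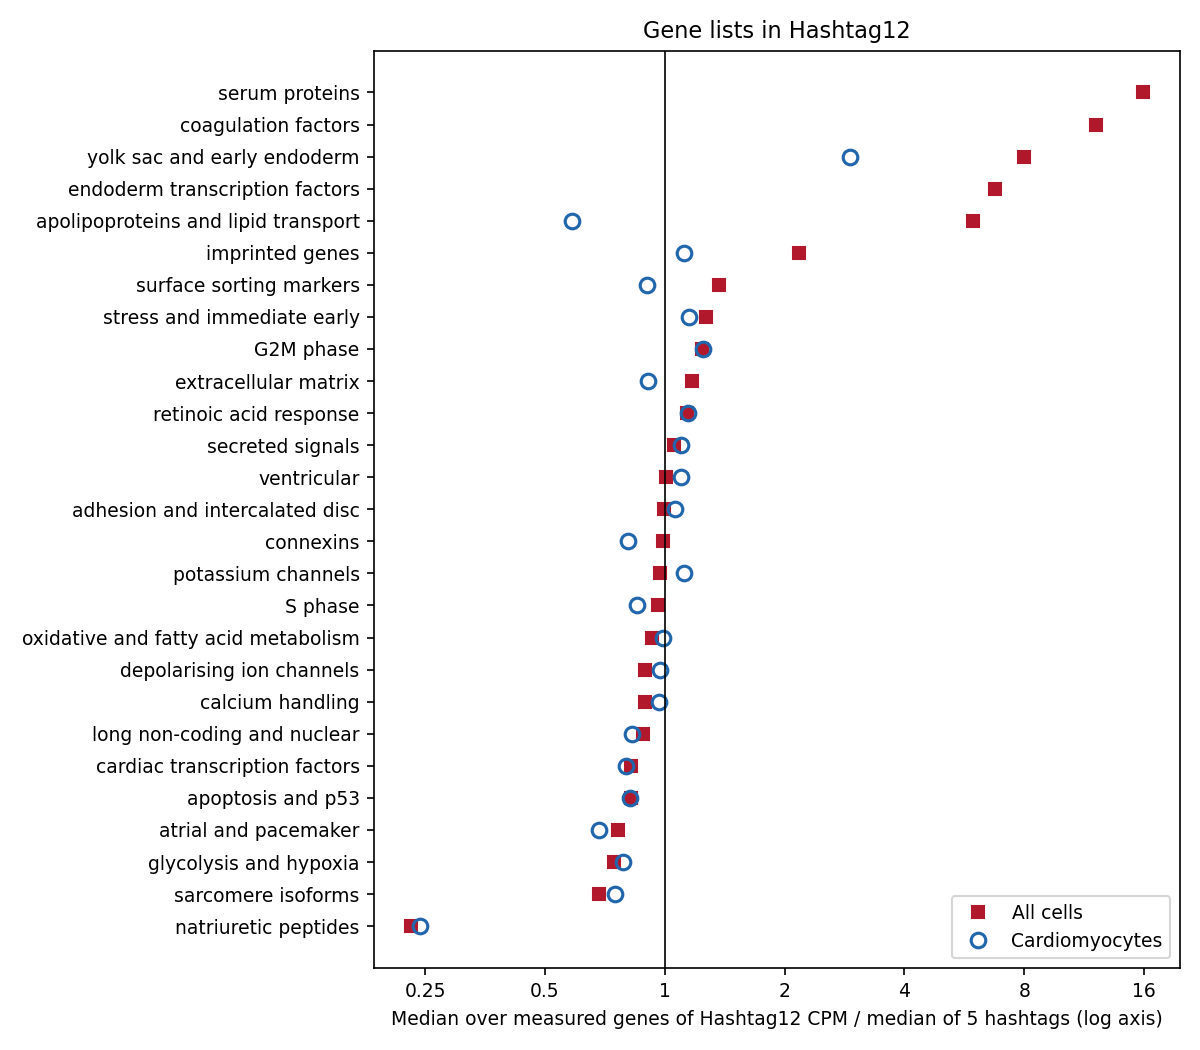
Median over the measured genes of a list of the ratio of Hashtag12 CPM to the median of 5 hashtags, on a log axis, for lists with at least 3 measured genes over all cells (red squares) and in cardiomyocytes (blue circles). Serum protein genes reach 15.9 over all cells and are not measured in cardiomyocytes, while natriuretic peptide genes sit at 0.23 and 0.24 in both. A gene under 10 CPM in the median of the 5 enters a list only through Hashtag12. The circle for yolk sac genes, at 2.92, rests on SPINK1 and DLK1, whose counts came mostly from 1 cell each.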

How the data were processed

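Gene and hashtag UMIs were measured in 1 pool, and the authors deposited a matrix of raw counts for 36601 genes and 13 hashtags in 24038 barcodes. The matrix names Cell Ranger 4.0.0 (per the file headers), and the genome build was hg38 (per the submitters' processing notes). Alignment settings and the annotation release: not given in the sources used here. Counts were summed over the cells of each hashtag and scaled to CPM with Python 3.11.15, numpy 2.4.6, pandas 2.3.3 and scipy 1.17.1. The 6 compared hashtags held 6115370 to 17268742 gene UMIs over all cells and 5081335 to 12852510 in cardiomyocytes, so that 10 CPM is at least 50 counts. A gene was measured with at least 10 CPM in Hashtag12 or as the median of 5, and at least 10 counts on a side. Levels have exact Poisson, folds exact conditional binomial and shares Clopper-Pearson intervals. Doublets were called by Scrublet (scanpy 1.11.5, expected share 17.3%), which marked 2314 of the cells (10.7%) at a threshold of 0.391; they were kept here and removed as an alternative. No correction for free RNA was applied. TMM factors came from edgeR 4.0.16. Cells under 3000 UMIs were left out of thinned shares (13 of the 334 cardiomyocytes of Hashtag12).

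Hashtags were treated as unassigned samples. The members, the 29 gene lists and the 8 marker lists were chosen with earlier results of these data known. Gene positions are from GENCODE 29 and figures were drawn with matplotlib 3.10.9. Named genes were AFP, APOA1, GJA1, up to 4 called genes per list with the largest ratio, the 8 genes per direction outside the lists with the largest gap to the nearest hashtag (at least 50 CPM on the higher side), and 14 cardiac genes. CORIN, TNNI1, ANGPT1, P4HA1 and the genes named within the endoderm and stromal classes beside their markers were added to show those groups. Some results that the rule names are not reported here. The calls and the Poisson intervals were tested on simulated data with the cardiomyocyte depths, which checks the calculation under counting error only.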

Additional observations from a re-analysis of the deposited data

How the results depend on the processing

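No paired analysis was possible because hashtags carry no replicate numbers. The endoderm-class share of Hashtag12 ran from 5.35% to 7.14% over 9 alternatives. Leaving out each of the 5 compared hashtags gave 285 to 368 genes higher and 198 to 253 lower over all cells, and 178 to 253 higher and 255 to 299 lower in cardiomyocytes. Counts moved by over 1.5 times, for all cells and then cardiomyocytes, with 90% hashtag purity, which left 42 cells of Hashtag12 (1062 higher and 894 lower, 1129 and 946), with no minimum level (1893 and 980, 1317 and 1086), with at least 50 CPM (67 and 69, 49 and 76) and with 1.5 times the nearest hashtag (130 and 72, 70 and 76). In cardiomyocytes alone they moved at a limit of 40000 CPM (418 and 496), and at 50% purity, chosen after seeing the data as were the limits of 100 hashtag UMIs and 3000 gene UMIs and the leaving out of stromal cells or a gene's top cell, 133 genes were higher. The cause was not tested. Ratios to the median that changed direction were, at 90% purity, DKK1 0.376, ITPR1 0.626, TBX18 1.36 and CRABP1 0.813 over all cells, and ITPR1 0.510 and SIRPA 0.932 in cardiomyocytes. Without endoderm-class cells they were AFP 0.786, APOA1 0.953, APOB 0.565, APOA2 0.572 and FGB 0.9004, and without stromal-class cells too AFP 0.958, APOA1 0.957, APOB 0.663, APOA2 0.747, FGB 0.962, DKK1 0.427 and H19 0.781. At 40000 CPM they were MCM6 1.00, NDC80 0.714, NUF2 0.997 and CCNB1 0.927, and at 50% purity ATF3 1.09. Of 154 named calls, 29 held in every setting run for them, among them NPPA, NPPB, TNNI3, CSRP3, CRYAB, ODAM, SLIT3 and MIR133A1HG in both comparisons.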
